A study of Cicer arietinum with 32 samples.

Results

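Out of 38818 transcripts in an expression atlas of chickpea (Cicer arietinum L., genotype ICC4958), 200 transcripts had the largest gain in level between young flower buds and old flowers, and these 200 members are described here. They were chosen by a score, the lowest level in the fully opened (FL3), faded (FL4) and drooped (FL5) flowers minus the highest level in the youngest buds (FB1 and FB2). A level here is L = log2(FPKM + 1), where FPKM is the number of mapped fragments scaled to transcript length and library size. Transcripts with a tissue specificity index (Tau) of at least 0.9 over 31 tissues/organs, which peak in 1 or few tissues, were not eligible. This left 30014 transcripts, of which 27947 reached an FPKM of 0.5 in at least 1 tissue. These 27947 are called the eligible transcripts and serve as the background for every count of members.

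The atlas measured RNA-seq expression in tissues of untreated plants of a single genotype, grown in a culture room, greenhouse or field, and the deposited files hold 1 averaged value per transcript and tissue. The flower series ran over buds of increasing size (FB1, FB2, FB3 and FB4), a flower with closed petals (FL1), a partially opened flower (FL2), and the open (FL3), faded (FL4) and drooping, senescing flower (FL5). Calyx (Cal, labelled sepal), corolla (Cor, labelled petal), androecium (And), gynoecium (Gyn) and pedicel (Pedi) were dissected from partially opened flowers, so the organs share the age of FL2. The other tissues were podshell (PodSh), seeds 5, 10 and 30 days after pollination (5DAP, 10DAP and 30DAP), seed coat (SdCt), embryo (Emb), endosperm (Endo), germinating seedling (GS), seedling shoot (S), young leaf (YL), mature leaf (ML), bracteole (Brac), shoot apical meristem (SAM), seedling root (R), root tip (Rtip), root hair (RH) and nodule (Nod).

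A flower that opens and ages passes through several programmes within one harvested sample. Petals expand and then break down their proteins and membranes, exporting nutrients through the flower stalk. In the anther, pollen fills with transcripts for tube growth late in development, and after pollination the pollen tubes grow through the gynoecium. Legume corollas wither after pollination while the ovary grows into a pod. A transcript that is higher in an old flower than in a bud can therefore come from any of the floral organs.

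The files gave no value per replicate, so no spread and no test between tissues could be calculated, and the depth behind a single value is unknown. Summed FPKM ranged from 597153 to 959753 over the 31 tissues. The S sample carried the tissue tag of a root, but the 42 transcripts described as photosynthesis proteins summed to 577 FPKM in S and to 53.8 FPKM in R, and the title was followed. The same list summed to 37219 FPKM in Nod against 810 FPKM in ML, and no member had its highest value in Nod. Values of R were listed with only 2 decimals, and whether they are averages was not tested, whereas 66.3% to 67.3% of the values above 0 had 3 decimals in the other tissues except 30DAP. Leaving R out of Tau gave the same 200 members. In a further 15 members FB3 was at least 2-fold above both FB2 and FB4, and the shares for leaf, root and shoot are also given without them.

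The scores of the members ranged from 2.62 to 7.13, with a median of 3.16. On the scale of FPKM + 1 the lowest old flower stage was 6.13-fold to 140.5-fold, with a median of 8.95-fold, above the highest young bud stage. For comparison, 5.11% of the eligible transcripts had a lowest old flower level at least 2-fold above the highest young bud level, and 4.44% were lower to the same degree. Both shares use the contrast that chose the members. The last members inside the limit were Ca_TC29619, Ca_TC38628 and Ca_TC22951 (2.62 each), and the next transcripts were Ca_TC07267 (2.61), Ca_TC32811 (2.61) and Ca_TC17576 (2.60), so the limit cuts a continuous range.

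Over the 9 stages the median FPKM of the members was 0.66 in FB1, 1.40 in FB2, 3.33 in FB3, 12.7 in FB4, 39.0 in FL1, 36.9 in FL2, 36.9 in FL3, 34.3 in FL4 and 54.1 in FL5. Most of the gain thus lay between FB2 and FL1, before the petals opened. The eligible transcripts had medians between 6.60 and 7.93 FPKM in each of these stages. These samples are bulk tissue, in which fewer cells of a type and less RNA per cell cannot be told apart.

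Ca_TC13690 had the highest score. Its FPKM was 1.09 in FB1, 1.46 in FB2, 3.66 in FB3, 56.2 in FB4, 589 in FL1, 722 in FL2, 1107 in FL3, 588 in FL4 and 345 in FL5. It was not a flower transcript alone, with 2462 FPKM in 30DAP, 737 FPKM in S and 363 FPKM in ML. Ca_TC02566 came next, with 0.533 FPKM in FB1, 1.70 in FB2, 1.02 in FB3, 3.37 in FB4, 366 in FL1, 562 in FL2, 516 in FL3, 290.4 in FL4 and 182 in FL5. The step of Ca_TC02566 fell between FB4 and FL1, one stage after the start of that of Ca_TC13690. The other 8 of the 10 highest scores lay between 4.76 and 5.30.

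These 10 members fell into 2 kinds. Ca_TC17816, Ca_TC07834, Ca_TC02217 and Ca_TC14991 were highest in the androecium among the organs and below 4 FPKM in each vegetative tissue. Ca_TC14991 was listed at 0 in all 10 of them, against 44.8 FPKM in And and 88.4 FPKM in FL5. The remaining members of the 10 were shared with vegetative tissues or seeds. Ca_TC19078, for example, had 321 FPKM in FL5, 6847 FPKM in Pedi and 10551 FPKM in R, but between 2.40 and 4.81 FPKM in the other organs. Ca_TC27074 had 223 FPKM in FL5 and 537 FPKM in 5DAP.

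The most abundant member was Ca_TC16404. Its FPKM was 351 in FB1, 707 in FB2, 812 in FB3, 1637 in FB4, 3044 in FL1, 3852 in FL2, 6456 in FL3, 7931 in FL4 and 9890.0 in FL5, higher in each stage than in the one before. It reached 17042 FPKM in Pedi, 9410.4 in Cal, 4903 in ML and 4758 in PodSh, against 0.170 in RH and 1.53 in Emb. Ca_TC25891 and Ca_TC25901 had the next highest means over FL3 to FL5, with 1876 and 1246 FPKM in FL5. Both were highest in Pedi among the organs, at 1671 and 688 FPKM, and neither has a description in the annotation used here. These abundant members were broadly expressed, and the 10 highest in FL3 to FL5 had Tau values between 0.27 and 0.55, against a median of 0.66 over all members.

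**Figure D1:**
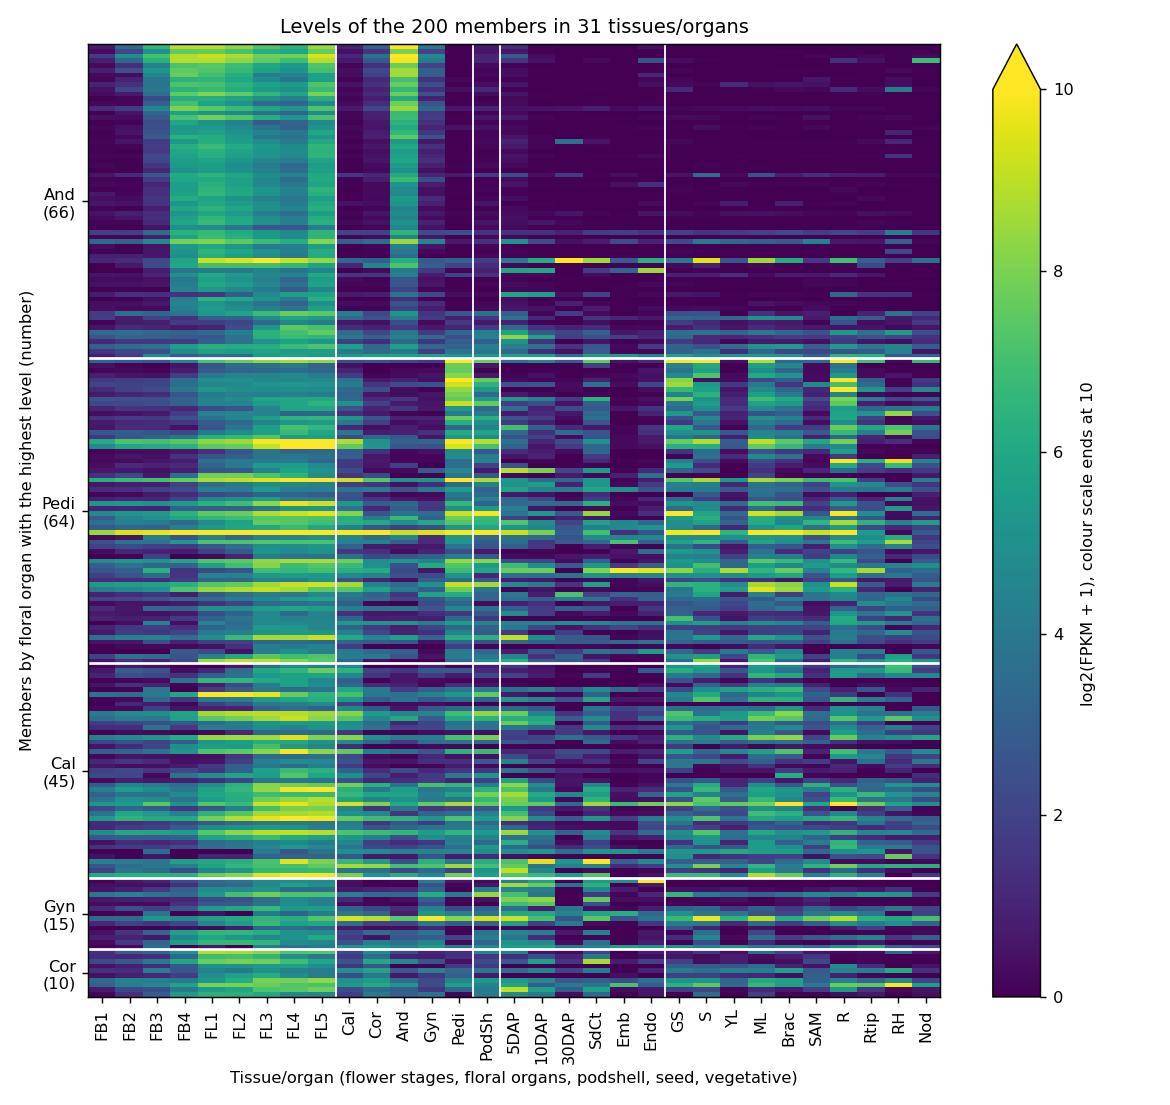
Level of each of the 200 members (rows) in the 31 tissues/organs (columns), as log2(FPKM + 1) on a colour scale that ends at 10. Rows are grouped by the floral organ with the highest level (And 66, Pedi 64, Cal 45, Gyn 15, Cor 10) and ordered within a group by the excess over the next organ. Of the 66 And rows 40 stay below 0.5 FPKM in all vegetative tissues, while the Pedi and Cal rows have medians of 25.3 and 31.9 FPKM in mature leaf.

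The members did not share a single place of highest expression. In 97 the highest value lay in FL1 to FL5 (7.25% of the eligible transcripts), in 2 in FB4 (0.651%), in 36 in a floral organ (22.5%), in 40 in a vegetative tissue (34.5%) and in 25 in seed tissues or podshell (30.1%). The score demands high values in FL3 to FL5 and low ones in FB1 and FB2, so the shares in the flower stages follow in part from it. The highest values were spread over 25 tissues, among them FL1 with 28 members (1.36% of the eligible transcripts), And with 20 (6.73%), R with 17 (5.38%), Pedi with 13 (4.09%), 5DAP with 10 (5.51%) and RH with 10 (5.81%). Thus 65 members had a higher value in a vegetative tissue, seed or podshell than in any flower, bud or floral organ. Cor, taken from partially opened flowers and so before it withers, held the highest value of 0 members (2.97% of the eligible transcripts). The same held for SAM (4.56%) and Nod (0.691%).

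Among the 5 organs of the partially opened flower, which the score did not use, 66 members were highest in And, 64 in Pedi, 45 in Cal, 15 in Gyn and 10 in Cor. The shares were 33.0% of the members in And (14.3% of the eligible transcripts), 32.0% in Pedi (20.1%), 22.5% in Cal (18.3%), 7.5% in Gyn (33.3%) and 5.0% in Cor (13.9%). Androecium and pedicel were over-represented against this background, calyx was near it, and gynoecium and corolla were below it. The And members stood out most from the other organs. At least 4-fold above the next organ were 51 of 66 members in And, 17 of 64 in Pedi, 5 of 45 in Cal, 3 of 15 in Gyn and 1 of 10 in Cor. For comparison, 4005 eligible transcripts were highest in And, and 958 of these that were not members passed the same limit. This count was not made over the eligible transcripts for the other organs.

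The 66 androecium members had a median of 43.2 FPKM in And, against 1.57 in Gyn, 0.74 in Cor, 0.13 in Cal and 0.02 in Pedi. Outside the flower 40 of the 66 were below 0.5 FPKM in all 10 vegetative tissues, and the others included Ca_TC13690 with 737 FPKM in S. Over all members this held for 43, or 21.5%, against 5.05% of the eligible transcripts. The median of the androecium members in the flower series was 0.26 FPKM in FB1, 0.42 in FB2, 3.27 in FB3, 51.1 in FB4, 71.7 in FL1, 50.5 in FL2, 31.4 in FL3, 21.0 in FL4 and 66.7 in FL5. They were therefore near their highest level already in the last bud stage, lowest among the flower stages in FL4, and high again in FL5.

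This return in the drooping flower was seen in most members of the group. FL4 was at least 2-fold lower than both FL1 and FL5 in 52 of the 66 androecium members and in 0 of the other 134, against 2.14% of the eligible transcripts. In all, 57 members were at least 2-fold higher in FL5 than in FL4 and 8 were lower (3.49% and 3.20% of the eligible transcripts), and 52 of the 57 were androecium members. Among members at least 4-fold above the next organ in And, 48 of 51 were at least 2-fold higher in FL5 than in FL4. Of 958 other eligible transcripts with such an excess in And, 308 (32.2%) were. FL4 was at least 2-fold lower than FL1 in 48 of the 51 and in 452 (47.2%) of the 958, so part of this course is shared by other androecium transcripts. The score sets a floor for FL3 to FL5 but not their order. The comparison of FL5 with FL4 was chosen after the values had been seen. The 3 transcripts described as pollen proteins summed to 2692 FPKM in FB4, 488 in FL1, 264 in FL2, 81.8 in FL3, 118 in FL4 and 171 in FL5. In the organs they summed to 3207 FPKM in And and 3076 in Cor, so the list was not particular to the androecium. Their part in the return was not tested.

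**Figure D2:**
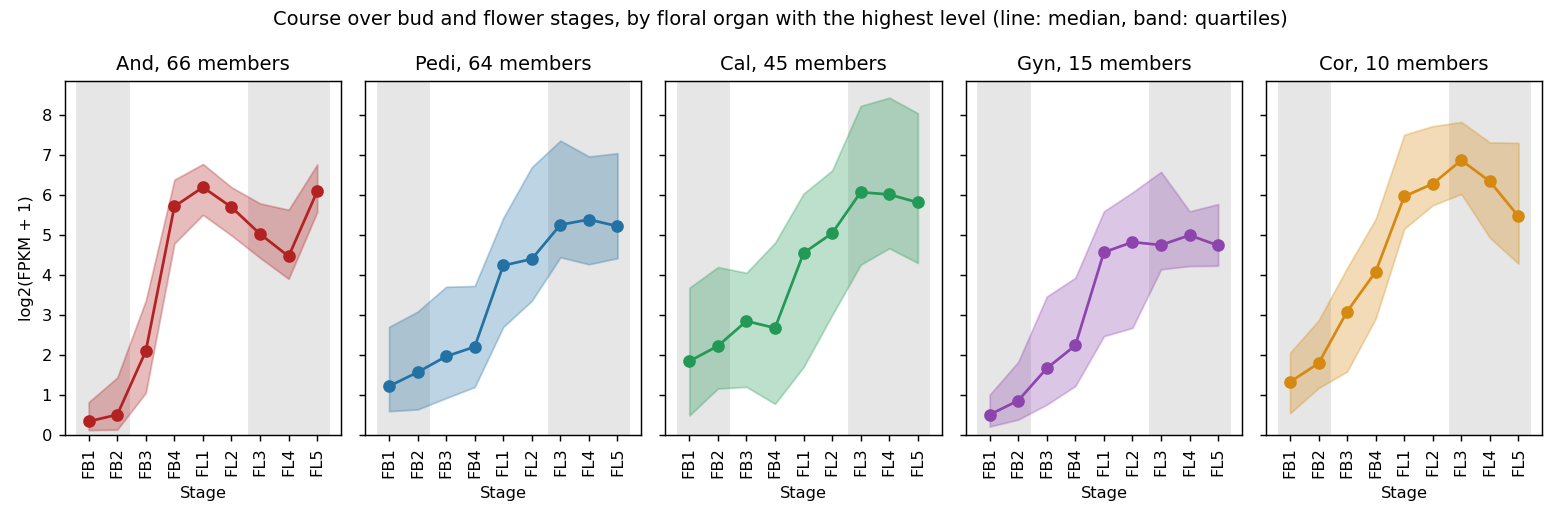
Median (line with points) and quartiles (band) of log2(FPKM + 1) over the 9 bud and flower stages for members grouped by their highest floral organ. Grey areas mark the stages used in the score. The And members reach their level by FB4 and dip in FL4, where the median is 21.0 FPKM, while the Pedi and Cal members climb mostly between FB4 and FL3.

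Of the 66 androecium members 6 have a description. Ca_TC01679, placed at bases 12950047 to 12950356 of chromosome 1 of the kabuli genome v1.0, matches RALF-like 16 of Arabidopsis, of a family of small secreted peptides that alkalinize the cell wall space. It had 1603 FPKM in And, against 26.0 in Gyn, 12.3 in Cor, 1.19 in Cal and 0 in Pedi. In the flower series it had 2.41 FPKM in FB1, 29.7 in FB2, 134 in FB3, 462 in FB4, 594 in FL1, 439 in FL2, 223 in FL3, 229 in FL4 and 689 in FL5. It was listed at 0 in 7 of the vegetative tissues, with at most 0.160 FPKM in the rest.

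Ca_TC00306 matches syntaxin of plants 124 (SYP124), which in Arabidopsis marks the membrane of growing pollen tubes. Its values were 128 FPKM in And, against at most 1.72 in the other organs, and 51.9 FPKM in FL5 against 13.7 in FL4. Ca_TC00476, related to CBL-interacting protein kinase 20, a kinase family of calcium signalling, had 14.9 FPKM in And but 86.5 in FL1 and 69.5 in FL5. The kinase transcript was thus well above its organ value in the whole flower. Ca_TC00015, described as MAP kinase kinase kinase 13, an upstream kinase of a phosphorylation cascade, had 27.4 FPKM in And, 60.0 in FL1, 10.8 in FL4 and 48.3 in FL5.

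Ca_TC01043 carries the domain of invertase/pectin methylesterase inhibitors, proteins that restrain sugar cleavage or wall stiffening. It was listed at 0 in all vegetative tissues and had 57.5 FPKM in FB4, 6.10 in FL3 and 24.1 in FL5, so its highest stage was the last bud. Ca_TC00514 matches NOD26-like intrinsic protein 1;2, a channel of the aquaporin family, and had 367 FPKM in And, 287 in FL5 and 76.9 in FL4. It was the least restricted of these members, with 32.6 FPKM in 5DAP and 21.2 FPKM in SAM. The members with the largest excess in And, Ca_TC22780 (953 FPKM) and Ca_TC21274 (244 FPKM), followed the same course and have no description.

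**Figure D3:**
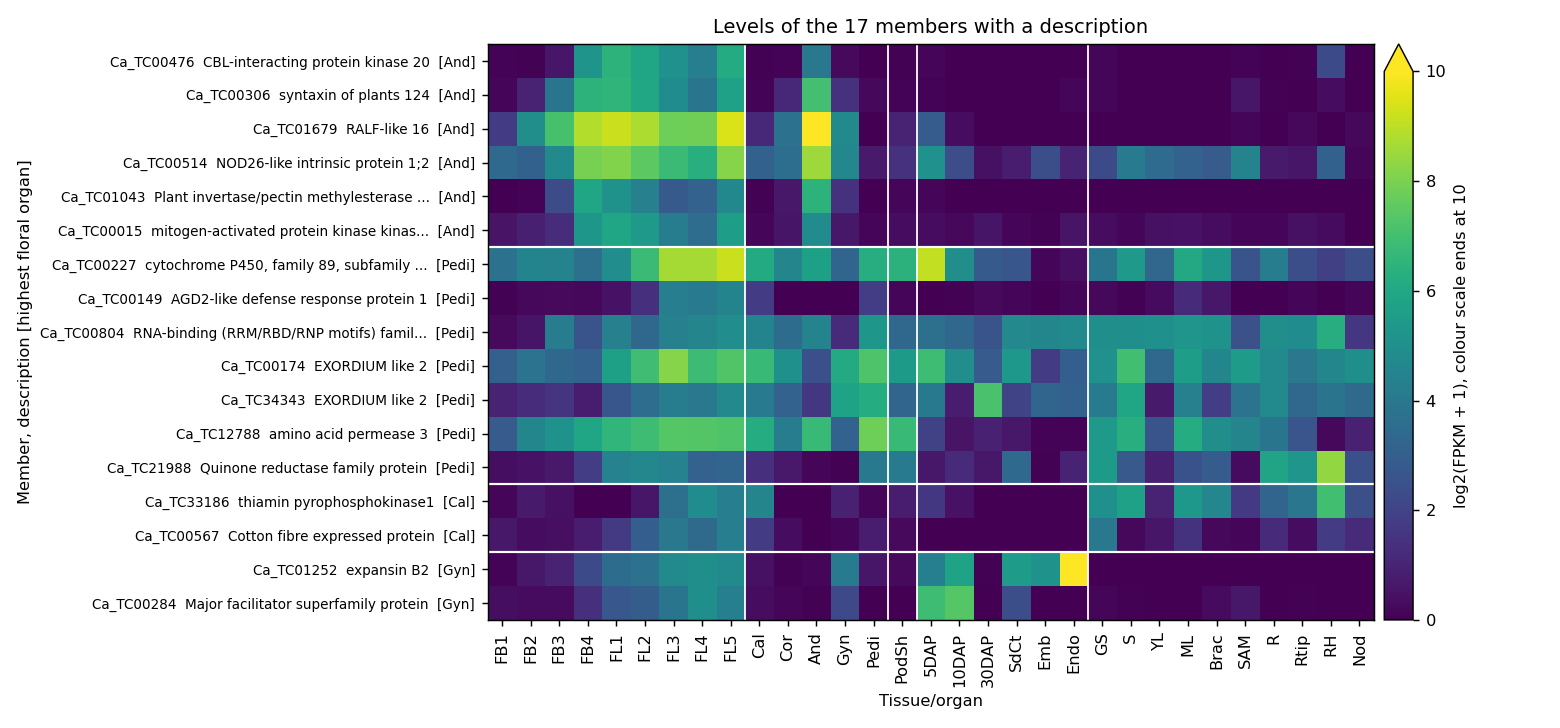
Level of the 17 members with a description in the annotation used here, as log2(FPKM + 1) on a colour scale that ends at 10, in the 31 tissues/organs. Rows are grouped by highest floral organ, given in brackets. All 6 And rows are lower in FL4 than in FL1 and FL5, and Ca_TC01252 is brightest in Endo at 3367 FPKM.

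The 64 pedicel members behaved differently. The pedicel is the stalk through which the flower is supplied, and their median there was 38.7 FPKM, against 12.2 in Cal, 3.38 in Cor, 2.07 in And and 1.35 in Gyn. Their medians were 1.32 FPKM in FB1, 1.96 in FB2, 2.89 in FB3, 3.60 in FB4, 17.8 in FL1, 20.0 in FL2, 37.0 in FL3, 40.6 in FL4 and 36.0 in FL5. The step lay between FB4 and FL1, a stage later than in the androecium members, and the 3 old flower stages were level. These members were also well expressed in R (38.4 FPKM), S (27.3), ML (25.3) and GS (20.1), but not in YL (1.43) or SAM (2.49).

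Ca_TC19078, Ca_TC20375 and Ca_TC18630 had the largest excess in Pedi. Ca_TC20375 had 210.0 FPKM in Pedi and 0.347 in Cal, and was listed at 0 in Cor, And and Gyn. Ca_TC18630 had 194 FPKM in Pedi, and between 0 and 0.957 in the other organs. In the whole flower both stayed between 7.75 and 15.2 FPKM from FL3 to FL5, far below their pedicel value.

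Of the 64 pedicel members 34 were at least 2-fold above the next organ. The described ones include a transporter and enzymes, of which Ca_TC00227 and Ca_TC00149 were only slightly higher in Pedi than in Cal. Ca_TC12788 matches amino acid permease 3, a plasma membrane importer of amino acids. Its FPKM was 6.39 in FB1, 23.4 in FB2, 32.8 in FB3, 58.0 in FB4, 93.9 in FL1, 117 in FL2, 162 in FL3, 159 in FL4 and 152 in FL5, with 222 in Pedi and 7.81 in Gyn. In leaves it had 72.3 FPKM in ML and 5.04 FPKM in YL. The consecutively numbered Ca_TC12789, with the same description, was no member at 14.4 FPKM in Pedi and 5.27 FPKM in FL5.

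Ca_TC00227 matches cytochrome P450 CYP89A5, of a large family of oxidizing enzymes. Its FPKM was 12.1 in FB1, 21.6 in FB2, 21.0 in FB3, 12.1 in FB4, 29.1 in FL1, 111 in FL2, 401 in FL3, 404 in FL4 and 593 in FL5. None of the organs came near this, with 73.6 FPKM in Pedi, 68.3 in Cal, 50.4 in And, 22.3 in Cor and 8.66 in Gyn, whereas 5DAP had 539.8 FPKM. Ca_TC00149 matches AGD2-like defense response protein 1 (ALD1), an aminotransferase that in Arabidopsis makes the immune signal pipecolic acid. It was at or below 1.60 FPKM up to FL2 and had 18.5 FPKM in FL3, 16.8 in FL4 and 21.6 in FL5. Outside the old flower its highest values were 2.52 FPKM in Pedi and 2.37 in Cal, so this transcript was nearly confined to the open and ageing flower among the 31 tissues.

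Both members described as EXORDIUM like 2, of a family linked to brassinosteroid-responsive growth in Arabidopsis, were pedicel members. Ca_TC00174 had 156 FPKM in FL5 and 152 in Pedi, against 7.34 in FB1, and Ca_TC34343 had 25.2 FPKM in FL5 and 71.2 in Pedi, against 1.02 in FB1. They differed in seeds, where Ca_TC34343 reached 139 FPKM in 30DAP and Ca_TC00174 had 6.39. Ca_TC21988, described as a quinone reductase, a class of redox enzymes, had 15.4 FPKM in Pedi, 23.9 in FL2 and 332 in RH.

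The 45 calyx members had medians of 30.1 FPKM in Cal, 12.8 in Pedi, 8.56 in Cor, 5.67 in Gyn and 3.46 in And. Their stage medians were 2.58 FPKM in FB1, 3.66 in FB2, 6.16 in FB3, 5.36 in FB4, 22.3 in FL1, 31.8 in FL2, 65.7 in FL3, 63.2 in FL4 and 54.9 in FL5, with the highest value in the fully opened flower. Their excess over the next organ was small, with a median of 0.92 on the log2 scale. Ca_TC33186, which matches thiamin pyrophosphokinase 1, the enzyme that activates vitamin B1, had the largest, with 22.3 FPKM in Cal and at most 0.883 in the other organs. It was listed at 0 in FB4 and FL1, had 0.523 FPKM in FL2, and then 11.9 in FL3, 28.2 in FL4 and 18.4 in FL5. Its highest value was 125 FPKM in RH.

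Ca_TC26198 and Ca_TC03436 followed with 86.2 and 23.0 FPKM in Cal. Ca_TC26198 had 1.09 FPKM in FL1, 10.2 in FL2, 66.9 in FL3, 93.5 in FL4 and 208 in FL5, and Ca_TC03436 had 93.8 FPKM in ML against 1.95 in YL. Ca_TC00567, which carries the domain of cotton fibre expressed proteins, was at 2.35 FPKM in Cal, 18.6 in FL5 and 14.9 in GS.

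Of the 15 gynoecium members, 14 reached 0.5 FPKM in 5DAP and 14 in 10DAP, as did 79.8% and 78.9% of the eligible transcripts. The group median was 15.6 FPKM in Gyn, 47.6 in 5DAP, 23.5 in 10DAP and 19.6 in SdCt, against 0.52 in Pedi. Ca_TC01252 matches expansin B2, of a family that loosens cell walls. It had 16.8 FPKM in Gyn, at most 0.523 in the other organs, 25.7 in FL3, 30.7 in FL4, 25.5 in FL5 and 3367 FPKM in Endo. Ca_TC10423 had 4.77 FPKM in Gyn and 392 in 5DAP. Ca_TC00284, described as a major facilitator superfamily protein, a class of small solute transporters, had 3.58 FPKM in Gyn, 117 in 5DAP and 165 in 10DAP. Flowers of the late stages hold the fertilized ovary, and the part of seed tissue in the levels of these members was not tested.

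In 8 of the 10 corolla members the whole flower was at least 2-fold above its highest organ. Their medians were 20.5 FPKM in Cor and 76.3 FPKM in FL2, from which the organs were taken. Ca_TC04009 had 26.3 FPKM in Cor and 1.09 to 4.18 in the other organs, but 455 in FL1, 413 in FL2 and 307 in FL3. Ca_TC16943 had 10.7 FPKM in Cor and 127 in FL2. Ca_TC30179 came nearer, with 66.8 FPKM in Cor and 246 in FL2, and was highest in SdCt at 419 FPKM.

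A whole flower should not exceed the highest of its organs if these are complete and the scaling is alike. In FL2, however, 47 members, or 23.5%, were at least 2-fold above their highest organ, against 2.10% of the eligible transcripts, and 22 were at least 4-fold above it, against 0.497%. By organ these 47 were 17 And, 8 Pedi, 8 Cal, 8 Cor and 6 Gyn members. The largest excess was that of Ca_TC02566, with 562 FPKM in FL2 and at most 8.73 in an organ. Ca_TC10491 had 61.9 FPKM in FL2 and 1.55 in And, its highest organ. Ca_TC26229 had 44.0 FPKM in FL2 and 1.46 in Cal. At 2-fold the count was 16 members for FB4 (0.873% of the eligible transcripts), 42 for FL1 (1.77%), 77 for FL3 (2.31%), 73 for FL4 (3.11%) and 76 for FL5 (2.31%), of which the last 3 are stages of the score. The score used whole buds and flowers and no organ, and FL1 and FL2 lie next to its stages. How far this choice of members favours such an excess was not tested. This comparison of stages with organs, and the transcripts Ca_TC10491 and Ca_TC26229, were chosen after the values had been seen.

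**Figure D4:**
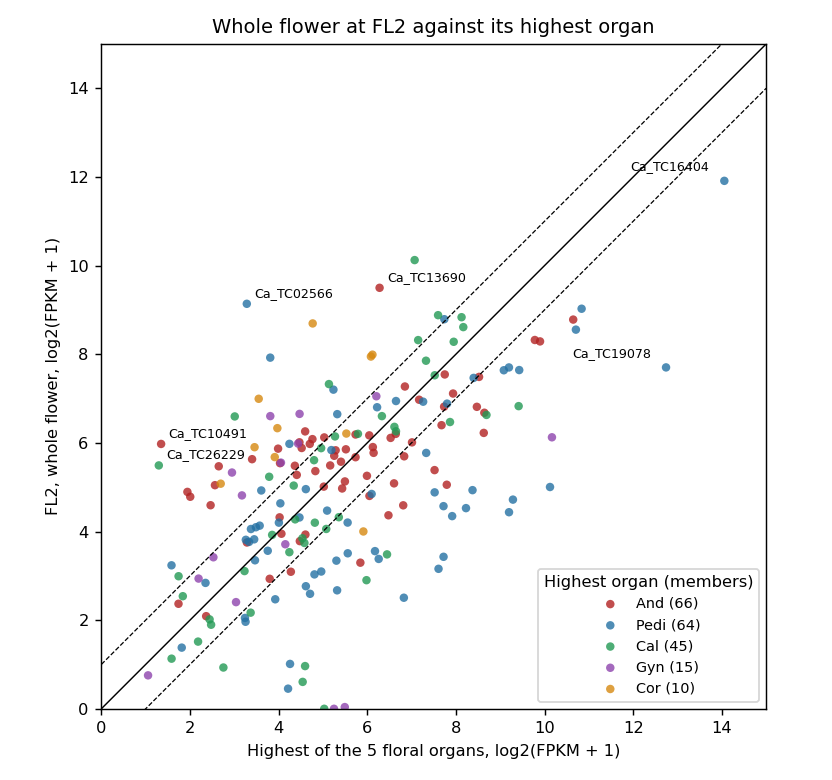
Level of the 200 members in the partially opened flower (FL2, vertical axis) against the highest of the 5 organs dissected from such flowers (horizontal axis), both as log2(FPKM + 1), coloured by that organ. The solid line marks equal levels and the dashed lines a 2-fold difference. Above the upper dashed line lie 47 members, led by Ca_TC02566 with 562 FPKM in FL2.

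Vegetative tissues, which the score did not use, offered pairs of a grown part and a young or meristematic part. Leaves differed in position on the plant, root tips and roots came from seedlings of the same age, and the meristems were dissected from older seedlings than the shoots. In the mature against the young leaf, 97 members were at least 2-fold higher and 6 lower, while 11.3% of the eligible transcripts were higher and 12.2% lower. The medians of the members were 6.16 FPKM in ML and 0.76 FPKM in YL. In the root against its tip, 81 members were higher and 13 lower (15.3% and 18.1% of the eligible transcripts), with medians of 5.44 FPKM in R and 1.83 FPKM in Rtip. In the shoot against the meristem, 93 were higher and 4 lower (10.1% and 20.1%), with medians of 5.33 FPKM in S and 0.97 FPKM in SAM. Thus 48.5%, 40.5% and 46.5% of the members were higher in the grown part of these pairs.

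The background was also limited to the 14199 eligible transcripts that reach the members' lowest level in FL3 to FL5. This limit did not match levels in the leaf, root and shoot tissues themselves. Of these 14199, 13.4% were higher in ML than YL, 17.9% in R than Rtip and 9.76% in S than SAM. In the same pairs 14.9%, 20.5% and 23.7% were lower. The direction was shared among pairs in many members, since 50 (25.0%) were higher in ML, R and S at once, against 2.74% of the eligible transcripts, and 0 were lower in all 3, against 4.12%. Of the 50, 34 were pedicel members, 13 calyx members, and 1 each were corolla, androecium and gynoecium members. With a pseudocount of 1, a transcript under 1 FPKM in YL, Rtip or SAM could not be called lower in that pair. The medians of the members were 0.76 FPKM in YL and 0.97 in SAM, against 5.31 and 7.34 for the eligible transcripts. The low counts of lower members therefore follow in part from their levels.

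**Figure D5:**
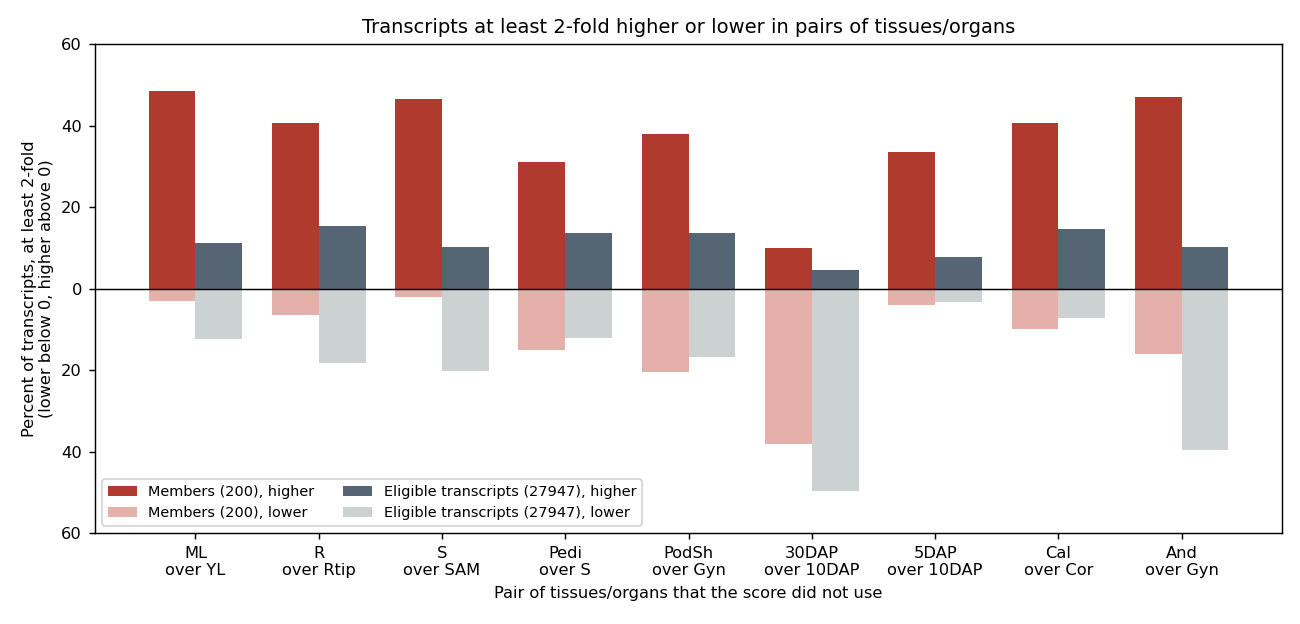
Percent of the 200 members (red, left bar of each pair) and of the 27947 eligible transcripts (grey, right bar) that were at least 2-fold higher (above 0) or lower (below 0) in the tissue/organ named on top than in the one named beneath it. Members were higher in 48.5% for ML over YL, 40.5% for R over Rtip and 46.5% for S over SAM, against 11.3%, 15.3% and 10.1% of the eligible transcripts.

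By count, the vegetative pattern belonged mainly to the pedicel and calyx members. In ML over YL, 53 of 64 pedicel members and 28 of 45 calyx members were at least 2-fold higher, and 6 of 66 androecium members were. In R over Rtip these counts were 49, 22 and 6, and in S over SAM 49, 26 and 8. Of 10 corolla members 4, 3 and 5 were higher in these 3 pairs, and of 15 gynoecium members 6, 1 and 5. The shares of the eligible transcripts were 11.3%, 15.3% and 10.1%. The 40 androecium members below 0.5 FPKM in all vegetative tissues could not be called in either direction. Without the androecium members, 91 of 134 were higher in ML than YL, 75 in R than Rtip and 85 in S than SAM. In single members the gap was wide. Ca_TC02566 had 139 FPKM in ML and 0.507 in YL, and Ca_TC19078 had 458 in ML and 0.297 in YL.

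Among the other pairs, Pedi exceeded S in 62 members and was lower in 30 (13.6% and 12.2% of the eligible transcripts). PodSh exceeded Gyn in 76 and was lower in 41 (13.7% and 16.7%), of which the higher ones included 45 pedicel members and the lower ones 26 androecium members. With a pseudocount of 0.1 this direction turned, and 35.0% were higher, fewer than were lower. Cal exceeded Cor in 81 and was lower in 20 (14.5% and 7.22%). And exceeded Gyn in 94 and was lower in 32 (10.2% and 39.6%). The last 2 pairs were chosen after the values had been seen, and both follow in part from how many members belong to each organ.

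In both pairs of seed stages more members were higher in the earlier stage than in the later one, as were more of the eligible transcripts. In 5DAP over 10DAP, a pair chosen after the values had been seen, 67 members were at least 2-fold higher and 8 lower (7.83% and 3.26% of the eligible transcripts). In 30DAP over 10DAP, 20 were higher and 76 lower, but 4.47% of the eligible transcripts were higher and 49.7% lower. This direction turned with quantile normalization, under which 21.0% were higher, more than were lower. The medians in 30DAP were 0.21 FPKM for the members and 1.42 FPKM for the eligible transcripts, and 40.5% of the members reached 0.5 FPKM there, against 62.2% of the eligible transcripts. With a pseudocount of 1, a transcript under 1 FPKM in 10DAP could not be called lower. Member medians were 5.04 FPKM in 5DAP and 1.27 in 10DAP, and lowest in Emb at 0.07.

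Members were not expressed everywhere at the threshold of 0.5 FPKM. In the organs 169 were expressed in And (76.1% of the eligible transcripts), 158 in Gyn (83.0%), 151 in Cal (83.8%), 150 in Cor (80.4%) and 136 in Pedi (79.4%). As shares of the 200 members these were 84.5%, 79.0%, 75.5%, 75.0% and 68.0%. In PodSh 142 were expressed (82.1% of the eligible transcripts). In the shoot system the number was 136 in ML (79.0%), 135 in S (79.8%), 134 in GS (83.9%), 133 in Brac (77.7%), 117 in SAM (82.3%) and 111 in YL (79.8%). Below ground it was 130 in R (76.1%), 118 in Rtip (77.2%), 107 in Nod (61.4%) and 96 in RH (66.0%). The members thus passed this threshold more often than the background in And and less often in every other tissue listed here. As shares of the members, the values were 55.5% in YL, 58.5% in SAM and 48.0% in RH. In Pedi the 66 androecium members had a median of 0.02 FPKM.

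The time of the gain can be read from FB3, FB4, FL1 and FL2, which the score did not use. A member passed the middle of its rise at the earliest of these stages whose level lay at or above the midpoint between the highest young bud and the lowest old flower level. This was FB3 for 38 members, FB4 for 53, FL1 for 61 and FL2 for 23, and 25 passed it later. As shares of the 200 members these were 19.0%, 26.5%, 30.5%, 11.5% and 12.5%, against 12.7%, 18.6%, 33.7%, 13.7% and 21.4% of the eligible transcripts with a score of at least 1. Of the 66 androecium members 22 passed it in FB3 and 36 in FB4. Of the 64 pedicel members 36 passed it in FL1, and of the 45 calyx members 14 in FL1 and 14 after FL2.

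Late members differed in their level before the flower opened. Ca_TC25891, among the most abundant, had 70.9 FPKM in FB1, 315 in FL1, 375 in FL2 and 1876 in FL5. Ca_TC13519, chosen after its values had been seen, had 0.447 FPKM in FB1, 1.36 in FB2, 1.03 in FB3, 0.660 in FB4, 0.983 in FL1, 4.17 in FL2, 39.5 in FL3, 178 in FL4 and 135 in FL5. In the 5 organs it had 0.623 to 2.34 FPKM, and outside the flower its highest value was 9.83 FPKM in 5DAP. Ca_TC00149 (ALD1) and Ca_TC33186 (thiamin pyrophosphokinase 1), given above, are 2 of the described members in this class.

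Not every rise was a smooth climb. In 15 members FB3 was at least 2-fold higher than both FB2 and FB4, a pattern found in 0.762% of the eligible transcripts. Their medians were 0.15 FPKM in FB1, 0.30 in FB2, 13.2 in FB3, 0.87 in FB4, 3.54 in FL1, 6.47 in FL2, 19.5 in FL3, 19.2 in FL4 and 17.1 in FL5. Elsewhere these members were broadly expressed, with a median Tau of 0.40 and medians of 33.2 FPKM in ML, 30.1 in R and 32.1 in Cal. Ca_TC37437 was listed at 0 in FB1, FB2, FB4, FL1 and FL2, and had 10.7 FPKM in FB3, 16.7 in FL3, 5.22 in FL4, 12.6 in FL5 and between 20.7 and 31.7 FPKM in the 5 organs. Ca_TC00804, described as an RNA-binding protein with RRM motifs, had 0.177 FPKM in FB1, 18.1 in FB3, 5.11 in FB4 and 73.2 in RH. Among the members without these 15, 51.4% were higher in ML than YL, 41.1% in R than Rtip and 44.3% in S than SAM. The pattern was noticed in the data. Whether it belongs to the flower stages or to the libraries was not tested.

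Descriptions were at hand for 3488 transcripts, 2106 of them eligible, and for only 17 of the 200 members, so the remaining 183 can be given by identifier alone. Of the 15 members whose type is listed, all 15 are mRNA, and of the 1808 transcripts with a listed type 186 are long non-coding RNA. The pathways known from flower ageing were therefore followed in the described eligible transcripts, whether or not they are members. The median score over all eligible transcripts was -0.43.

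Over all eligible transcripts, 5.11% were at least 2-fold higher in the old flower than in the young buds and 4.44% were lower, and each list below holds few transcripts. Of 54 proteases and peptidases 5 were higher and 1 lower, of 5 senescence and chlorophyll breakdown transcripts 0 were either, of 13 for sugar transport and sucrose cleavage 0 were higher and 2 lower, and of 10 for amino acid, nitrate and phosphate transport 2 were higher. None of the proteases was a member. The aspartic proteinase Ca_TC32595 had 10.9 FPKM in FL3, 29.2 in FL4 and 34.0 in FL5, against 2.59 in FB1 and 4.11 in FB2. The metacaspase Ca_TC00172, of a protease class linked to plant cell death, had 10.2 FPKM in FL3, 13.0 in FL4 and 14.9 in FL5, against 2.58 in FB1 and 3.35 in FB2. The protease that was lower, Ca_TC00276, described as Peptidase C65 Otubain, had 0.287 FPKM in FL3, 0.247 in FL4 and 0.173 in FL5, against 3.85 in FB1 and 2.15 in FB2. These examples were chosen after the values had been seen.

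For hormones and stress, 1 of 6 ethylene transcripts, 1 of 12 for jasmonate and abscisic acid, 2 of 16 peroxidases, catalases and glutathione S-transferases and 1 of 8 WRKY and NAC factors were higher, with 0 lower in each list (5.11% higher and 4.44% lower over all eligible transcripts). The ethylene responsive element binding factor Ca_TC00405 had 17.3 FPKM in FL3, 20.7 in FL4 and 39.4 in FL5, against 4.96 in FB1 and 3.98 in FB2. Of 11 cytochrome P450 transcripts 3 were higher, Ca_TC00227 among them. Of 18 cell wall transcripts 4 were higher, including the members Ca_TC01252 and Ca_TC01043, and 1 was lower.

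In lists for growth and housekeeping, higher and lower (5.11% and 4.44% over all eligible transcripts) were 1 and 1 of 42 photosynthesis, 1 and 1 of 11 cell division, 1 and 0 of 44 ribosomal protein, 1 and 1 of 16 lipid breakdown and 0 and 0 of 16 heat shock transcripts. In ML over YL (11.3% higher and 12.2% lower over all eligible transcripts), 0 of the 11 cell division and 3 of the 44 ribosomal protein transcripts were at least 2-fold higher, and 6 and 20 were lower. Of the 8 WRKY and NAC factors 4 were higher in ML than YL and 0 lower.

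Some members may not be independent entries, which was not tested. Identifiers follow each other in 14 pairs of members, which hold 28 of the 200, and in 9 pairs both had the same highest organ. These counts were not made over the eligible transcripts, so whether they are unusual is not known. Ca_TC27710 and Ca_TC27711, for example, had 10.8 and 8.99 FPKM in FL5, and Ca_TC14991 and Ca_TC14992 had 88.4 and 50.6. Overlapping loci or near-identical copies among such pairs cannot be told apart here, and reads could have been split between them. The pairs were noticed in the data.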

How the data were processed

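RNA-seq of 32 tissues/organs of chickpea genotype ICC4958 was used. According to the methods of the study, reads were aligned with bowtie2 to an assembly of transcripts and quantified with RSEM, and the authors deposited the average FPKM over the replicates of each tissue. The values of 20DAP have the size of estimated counts and were not used. FPKM averages hide the spread and depth of libraries, so no test was made.

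Levels were log2(FPKM + 1), with a pseudocount of 1. Tau was the sum of 1 - L/max L over 31 tissues divided by 30. A difference of at least 1 on the log2 scale counted as 2-fold, which understates changes of low transcripts. Members and lists were chosen with earlier results of these data known. Named were the 10 highest scores, the 10 highest means over FL3 to FL5, the 3 largest excesses of each organ, members with descriptions or in a gene list, and the 3 transcripts on each side of the limit. Transcripts of the gene lists that are not members were named as examples, chosen after the values had been seen. Alternatives covered pseudocount, scaling, Tau, number of members, stages in the score, thresholds and a background limited by level in FL3 to FL5. Descriptions and positions came from the parts of the study's annotation used here, mostly best Arabidopsis matches; 0 RefSeq identifiers matched. The selection was tested on simulated data. Python 3.11.15, pandas 2.3.3, numpy 2.4.6 and matplotlib 3.10.9 were used.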

Additional observations from a re-analysis of the deposited data

How the results depend on the processing

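Of 184 main shares recalculated under an alternative, 173 kept their direction and stayed within 1.5 times. With a pseudocount of 0.1, under which 119 of the 200 members were shared, 35.0% were higher in PodSh than in Gyn, fewer than were lower, 34.5% passed the middle of their rise in FB3 and 6.0% in FL2. With quantile normalization (183 shared), 21.0% were higher in 30DAP than in 10DAP, more than were lower. With the top 100, 6.0% passed the middle in FL2 and 7.0% later, and with the top 400, 3.25% were highest in Cor. With a score from FL4 and FL5 only (149 shared), 36.5% passed it after FL2, and with a score from FB1 to FB3 (149 shared), 0.0% passed it in FB3. At a call of 1.5 on the log2 scale, 20.0% were higher in Pedi than in S and 5.0% in 30DAP than in 10DAP. The cause of these moves was not tested, except that a score with FB3 bars passage there and a stricter call lowers counts. The shares higher in ML than YL, R than Rtip and S than SAM kept their direction and stayed within 1.5 times in each alternative run. Leaving R out of Tau, counting members not highest in And and leaving out the 15 members with a peak in FB3 were alternatives added after the data had been seen. Of the remaining values, all but 1 stayed within 1.5 times. No paired analysis was possible because each tissue has 1 averaged value.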

Other observations

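Root and root hair held the highest value of some members that were modest in the flower. Ca_TC26285, chosen after its values had been seen, had 3228 FPKM in R and 775 in RH, 9.53 in FL5 and 0.177 in FB1. Ca_TC25816, chosen likewise, had 1709 FPKM in R and 331 in Pedi, against 26.5 in FL5. Ca_TC02774 had 983 FPKM in RH and 138 in FL5. The highest member in Gyn, Ca_TC04309, had 1149 FPKM there and 158 in FL5. Ca_TC05883 and Ca_TC17700, both among the 15 members with a peak in FB3, had 0 and 0.027 FPKM in FL2, but 37.0 and 44.0 FPKM in Gyn, taken from flowers of that stage.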
